A study of Homo sapiens with 6 samples.

Results

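The data describe 10 transcription factor genes that specify the megakaryocyte lineage, GATA1, GATA2, ZFPM1, TAL1, GFI1B, RUNX1, FLI1, ETV6, NFE2 and MEIS1, in the human megakaryoblastic cell line Meg-01. The genes were chosen by name, as regulators known from the biology of the lineage, and make up 10 of the 58735 genes in the count table. Earlier results of these data were known when they were chosen. RNA was sequenced in 3 libraries of untreated cells (control) and 3 libraries of cells given 500 µM sodium propionate (C3), a product of bacterial fermentation in the gut, for 48 h, although the methods also name a shorter incubation before RNA extraction. Meg-01 is a single established leukaemia line derived from chronic myeloid leukaemia in blast crisis, so all 6 libraries share its genotype, and the libraries of a group are described in the study as technical replicates. Their spread, and every p-value below, therefore may leave out differences between separate cultures.

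Megakaryocytes arise from progenitors shared with red blood cells, and a small set of DNA-binding proteins directs this choice. GATA2 is used in stem and progenitor cells and GATA1 in maturing megakaryocytes and erythroid cells, and both bind the same GATA letters in DNA. GATA1 works with the cofactor encoded by ZFPM1 (FOG1), with the basic helix-loop-helix protein TAL1 and with the repressor GFI1B, while RUNX1, the ETS factors FLI1 and ETV6, the leucine zipper protein NFE2 and the homeodomain protein MEIS1 act beside them, and NFE2 is required for the last steps that release platelets.

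Of the 10 factors, 1 was higher and 1 was lower after C3 treatment. GFI1B rose to 1.27-fold and NFE2 fell to 0.770-fold of its control level, each passing edgeR's quasi-likelihood test at an adjusted threshold of 0.05 over the 15078 genes tested, while the other 8 factors did not pass. Over all tested genes, 11.0% were higher and 8.77% lower at the same threshold, so the number of factors that passed is close to that of genes in general. With edgeR, none of the 10 reached the gates that the study set for differentially expressed genes (DEGs), an adjusted p-value below 0.01 with a fold change above 1.3 in either direction, which 5.05% of the tested genes passed as higher and 1.47% as lower. GFI1B and NFE2 passed the p-value gate and stopped just short of the fold change gate. With DESeq2, the tool of the study, NFE2 passed both gates (log2 fold change -0.39, adjusted p = 1.82e-06), as it did with limma-voom and RLE factors, and GFI1B did with library size alone. The median log2 fold change was 0.006 over the 10 factors (-0.029 to 0.048 over the fits that leave out a library) and 0.002 over all tested genes, with 5 factors above 0 and 5 below. With library size alone, the median was 0.079 over the factors and 0.076 over all tested genes.

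All 10 factors passed the filter on low counts, at least 10 counts in at least 3 libraries. Library totals ran from 16159449 to 22821722 counts, and together the factors held between 33731 and 52580 counts per library. Of 11 megakaryocyte markers, 9 were tested. ITGA2B (CD41) had 12902 ± 390.3 normalized counts in control cells (SD, n = 3), whereas PF4 and GP1BB were at 0 counts in every library. The markers summed to 977.4 to 1021.2 CPM (counts relative to the size of the library) in control and 895.7 to 991.2 CPM in C3 libraries, against 95.8 to 105.2 and 106.9 to 114.0 CPM for 14 erythroid genes. The 14 myeloid genes summed to 368.8 to 390.1 and 339.6 to 363.7 CPM and the 10 lymphoid genes to 12.2 to 18.5 and 22.3 to 23.6 CPM. The part of these other lineage genes in the results on the factors was not tested, and in bulk RNA fewer cells of a kind and less RNA per cell cannot be told apart.

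The promoters of GFI1B, the factor that rose, and of TAL1, whose windows hold the most motif matches of the set, are shown here because the searched motifs are those of the 10 factors and their families. RefSeq windows from 250 bases before to 50 bases after a start were found for 8 of the 10 genes (11 windows, GRCh38.p14), and FLI1 and NFE2 were not matched. Only the longest stretch before the start that lies outside annotated exons is printed, 5′ to 3′ along the gene, with each match of a searched motif in capitals. The second GFI1B stretch ends 187 bases before its start. For GFI1B, on the forward strand, the stretches are chr9:132945376-132945530 and chr9:132978444-132978506. The capitals mark the E-box CAGATG of TAL1, as its reverse complement in the first stretch and as written in the second.
GFI1B, first start: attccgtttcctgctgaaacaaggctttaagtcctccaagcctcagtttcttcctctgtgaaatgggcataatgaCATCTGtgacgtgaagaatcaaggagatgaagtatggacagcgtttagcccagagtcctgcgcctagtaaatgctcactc
GFI1B, second start: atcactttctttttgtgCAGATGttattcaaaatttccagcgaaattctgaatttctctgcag

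For TAL1, on the reverse strand, the stretches are chr1:47232336-47232585 and chr1:47231716-47231965. In the upstream stretch the capitals mark the letters CCGGAA, bound by ETS factors, as their reverse complement. They also mark there the letters AGATAA, bound by factors of the GATA family, again as their reverse complement. In the downstream stretch they mark the RUNX letters TGTGGT in 3 copies.
TAL1, upstream start: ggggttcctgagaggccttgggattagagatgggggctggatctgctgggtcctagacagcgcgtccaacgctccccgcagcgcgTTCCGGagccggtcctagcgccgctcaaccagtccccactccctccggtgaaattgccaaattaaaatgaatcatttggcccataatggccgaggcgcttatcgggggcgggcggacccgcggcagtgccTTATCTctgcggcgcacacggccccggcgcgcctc
TAL1, downstream start: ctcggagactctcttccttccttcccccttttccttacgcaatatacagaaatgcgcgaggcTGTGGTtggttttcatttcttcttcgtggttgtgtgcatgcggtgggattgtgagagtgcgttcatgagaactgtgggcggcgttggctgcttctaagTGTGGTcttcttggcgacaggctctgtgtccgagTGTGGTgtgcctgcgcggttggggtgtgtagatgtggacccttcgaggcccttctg

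The motifs were searched on both strands of the whole windows. The first form of the GATA motif, AGATAA, was in 1 of the 11 windows, against 10.3% of all 35116 RefSeq promoter windows of the same length. The other form, TGATAA, which differs from it in the first letter, was also in 1 window (7.53% of all). The ETS letters CCGGAA were in 3 windows, those of MEIS1, RUNX1 and TAL1 (17.2% of all). The RUNX letters TGTGGT were in 2 windows, those of MEIS1 and TAL1 (13.1% of all), and the E-box CAGATG was in both windows of GFI1B (14.7% of all). The NF-E2 letters TGAGTCA were in 0 of the 11 windows (4.95% of all), as were the MEIS letters TGACAG (15.8% of all) and the GFI1 core motif AAATCAC (3.14% of all). A match is a description of the sequence, and binding was not measured.

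In control cells, the level per kilobase of merged exons, in CPM per kilobase, was highest for GATA2 and spanned the factors in the order GATA2 (97.8 ± 5.42), NFE2 (72.7 ± 3.07), GATA1 (62.8 ± 1.89), TAL1 (48.9 ± 0.540), GFI1B (47.4 ± 0.369), RUNX1 (33.0 ± 0.844), FLI1 (31.8 ± 1.23), ETV6 (10.9 ± 0.743), ZFPM1 (8.08 ± 0.459) and MEIS1 (1.96 ± 0.154; SD, n = 3 libraries each). Of these neighbours, only RUNX1 and FLI1 had overlapping libraries. GATA2 stood at percentile 97.4 of the levels of tested genes and MEIS1 at 38.3. After C3 treatment the level of GFI1B was 60.5 ± 4.45 and that of NFE2 56.0 ± 4.24, so that GFI1B moved from rank 5 to rank 3 and NFE2 from rank 2 to rank 4. The C3 libraries of GATA1 (63.9 ± 3.66) overlapped those of GFI1B, which overlapped those of NFE2. FLI1 (33.4 ± 1.02) then stood above RUNX1 (30.1 ± 0.807) without overlap. Gene models with many alternative exons, as for RUNX1 with 15574 exon bases, lower such a level, and isoforms of a gene are not separated by the counts.

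**Figure D1:**
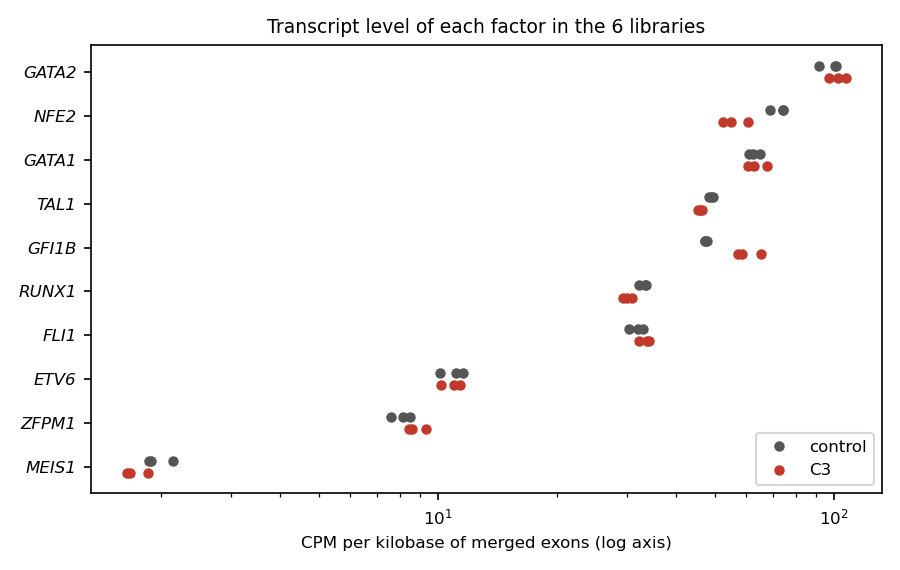
Level of each factor in CPM per kilobase of merged exons (log axis), with 1 point per library, grey for control and red for C3. GATA2 is highest in both groups and MEIS1 lowest, and the points of NFE2 shift down and those of GFI1B up after C3 treatment.

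GFI1B (ENSG00000165702), a zinc finger repressor that platelet and red cell precursors need, is located at chr9:132944000-132991687 (GRCh38, plus strand). Scaled by TMM factors, its counts were 5367, 5445 and 5379 in control replicates 1 to 3 and 7457, 6683 and 6504 in C3 replicates 1 to 3. Each C3 library lay above each control library, and C3 replicate 1 was the highest. Means were 5397 ± 42.0 and 6882 ± 506.6 (SD, n = 3), which edgeR fitted as 0.35 on the log2 scale (standard error 0.064, 95% interval 0.22 to 0.48; adjusted p = 0.000329, rank 455 of all tested genes). A two-sided exact permutation test of the counts gave 0.1, the lowest value this design can reach. Dropping any single library kept the estimate at 0.29 to 0.39, with adjusted p from edgeR of 0.00406 or less. GFI1B shares 5.72% of its exon bases with TSC1 on the other strand, and the TSC1 counts (908.2 ± 77.7 in control and 878.3 ± 48.9 in C3, SD, n = 3) had overlapping groups.

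NFE2 (ENSG00000123405) encodes the large subunit of the NF-E2 complex, which pairs with a small MAF protein and turns on genes of late megakaryocytes. The gene is located at chr12:54292111-54301015 (minus strand) and shares no exon bases with another gene. Its normalized counts were 3278, 3279.9 and 3045 in control replicates 1 to 3 and 2672, 2419 and 2308 in C3 replicates 1 to 3. All 3 C3 libraries were below all 3 control libraries. Means were 3201 ± 135.1 and 2466 ± 186.9 (SD, n = 3), fitted by edgeR as -0.38 on the log2 scale (standard error 0.066, 95% interval -0.51 to -0.24; adjusted p = 0.000189, rank 375, the smallest of the 10 factors). The exact permutation test gave 0.1. Dropping any single library left -0.44 to -0.33, with adjusted p from edgeR of 0.00522 or less.

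**Figure D2:**
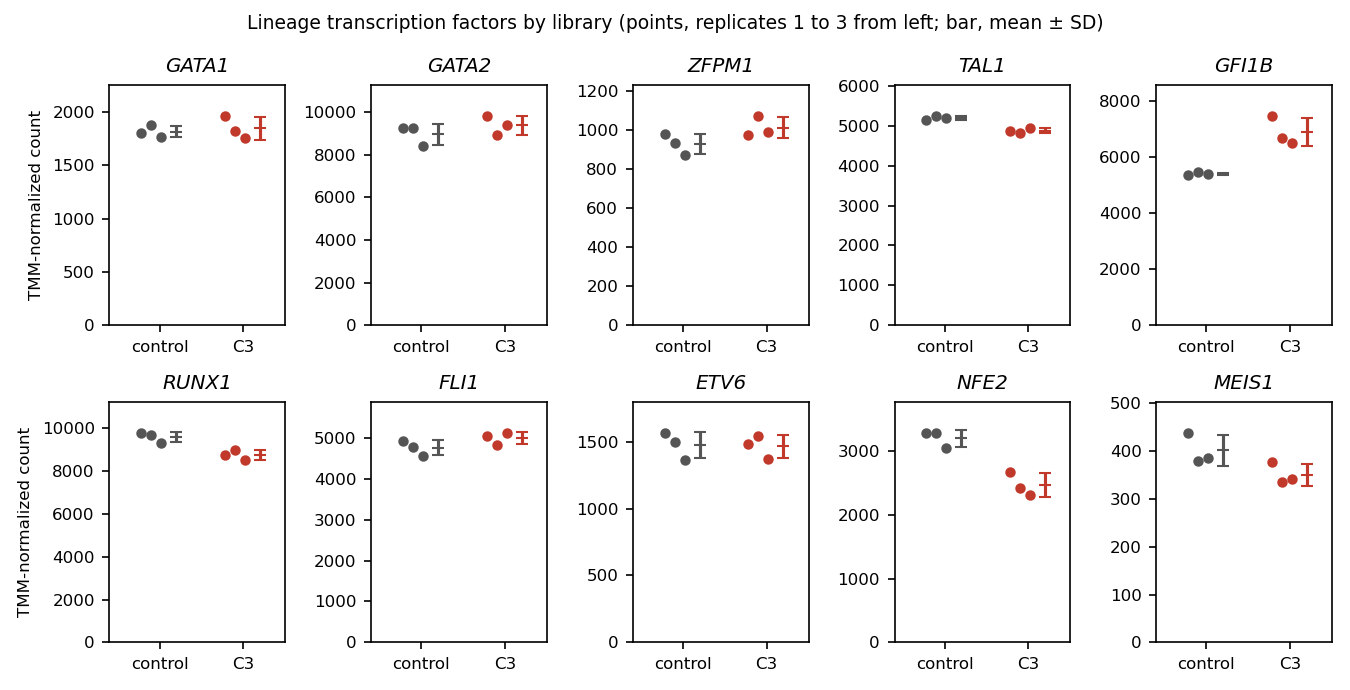
TMM-normalized counts of the 10 factors in each library (axes start at 0), with points for replicates 1 to 3 from left to right and bars for the mean ± SD of 3 libraries. All C3 points lie above the control points for GFI1B and below them for NFE2, TAL1, RUNX1 and MEIS1, the last 3 of which overlap when scaled by library size alone.

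The GATA factors and their cofactor did not pass the test. GATA2 is located at chr3:128479427-128493201 (minus strand), GATA1 at chrX:48786540-48794311 and ZFPM1 at chr16:88453280-88537031 (both plus strand). GATA2 had normalized counts of 9256, 9248 and 8392 in control and 9829, 8917 and 9391 in C3 libraries, with overlapping groups. Its log2 fold change was 0.065 (95% interval -0.068 to 0.20, adjusted p = 0.534 from edgeR), and GATA2-AS1, which shares 1.59% of its exon bases, did not pass either. GATA1 had 1804.5, 1878 and 1771 in control and 1966, 1821 and 1759 in C3 libraries, again overlapping, and a log2 fold change of 0.023 (-0.11 to 0.15, adjusted p = 0.853). ZFPM1, which encodes FOG1, had 977.7, 935.3 and 872.8 in control and 973.1, 1073 and 989.7 in C3 libraries. The lowest C3 library of ZFPM1 lay below the highest control library, and the log2 fold change was 0.12 (-0.023 to 0.27, adjusted p = 0.241). GATA2 and ZFPM1 kept their sign without passing in the 15 alternatives, but their size moved. GATA2 was 0.022 with either GC correction, 0.14 with library size alone, 0.020 without control replicate 3, 0.033 without C3 replicate 1, 0.10 without control replicate 1 and 0.10 without C3 replicate 2. ZFPM1 was 0.024 and 0.021 with the GC corrections, 0.20 with library size alone, and 0.082 without control replicate 3 and without C3 replicate 2. The intervals of GATA1 and GATA2 leave out changes as large as the 1.3-fold gate in either direction.

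Because maturation from progenitors is known to be marked by a switch from GATA2 to GATA1, the ratio of both genes was examined within each library, where no scaling between libraries enters. The log2 ratio of GATA1 to GATA2 per exon base was -0.70, -0.64 and -0.58 in control replicates 1 to 3 and -0.66, -0.63 and -0.75 in C3 replicates 1 to 3. GATA2 thus exceeded GATA1 in every library, by 1.5-fold to 1.69-fold per kilobase. The means were -0.64 ± 0.057 and -0.68 ± 0.065 (SD, n = 3), a difference of -0.042 that is smaller than either SD, and the exact two-sided permutation test gave p = 0.5. It was -0.071 without control replicate 1, -0.068 without C3 replicate 2, -0.014 without control replicate 3 and -0.006 without C3 replicate 3.

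TAL1, RUNX1 and MEIS1 had all C3 libraries below all control libraries without passing the adjusted test. TAL1 is located at chr1:47216290-47232225 and RUNX1 at chr21:34787801-36004667 (both minus strand), and MEIS1 at chr2:66433452-66573869 (plus strand). Together with NFE2 this makes 4 of the 10 factors, against 16.9% of all tested genes, and GFI1B was the 1 factor with all C3 libraries above, against 17.5%. These counts depend on the scaling. With library size alone (chosen after seeing the data), TAL1, RUNX1 and MEIS1 overlapped, leaving NFE2 as the 1 factor below (9.96% of all tested genes), and GATA1, GATA2, ZFPM1 and FLI1 joined GFI1B to make 5 above (23.8%). The log2 fold changes of TAL1, RUNX1 and MEIS1 were then -0.016, -0.060 and -0.13. RUNX1, which is mutated in a familial platelet disorder, had 9767, 9679 and 9305 counts in control and 8729.7, 8980.0 and 8512 in C3 libraries. Its log2 fold change was -0.13 (95% interval -0.26 to -0.007, unadjusted p = 0.0392 and adjusted p = 0.132 from edgeR), and DESeq2 gave an adjusted p-value of 0.0405. TAL1 had 5136, 5250.1 and 5205 in control and 4880.4, 4822 and 4947 in C3 libraries, a log2 fold change of -0.09 (-0.21 to 0.032, adjusted p = 0.318 from edgeR). TAL1 shares 14.8% of its exon bases with an antisense RNA gene (ENSG00000226252) that had 53.0 to 102.7 counts. MEIS1, a homeobox gene used in stem cells and early megakaryocyte progenitors, had 436.9, 379.6 and 385.7 in control and 376.7, 334.0 and 340.3 in C3 libraries. Its log2 fold change was -0.20 (-0.39 to -0.008, adjusted p = 0.138 from edgeR), and -0.12 without control replicate 1 (-0.25 to -0.12 over the 6 fits that leave out a library). MEIS1-AS2, which covers 13.1% of the exon bases of MEIS1 on the other strand, had at most 1 count per library, and MEIS1-AS3 had 0.

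Of the ETS factors, FLI1, which activates platelet glycoprotein genes, had 4919, 4780.4 and 4555 normalized counts in control and 5048, 4819.7 and 5111 in C3 libraries. Control and C3 libraries overlapped, and the log2 fold change was 0.071 (95% interval -0.055 to 0.20, adjusted p = 0.460 from edgeR). It was 0.14 with library size alone, 0.11 without control replicate 1 and 0.042 without control replicate 3, and passed in none of the 15 alternatives. ETV6, an ETS repressor whose germline mutations lower platelet numbers, had 1563.5, 1494 and 1366 in control and 1483, 1540.8 and 1372 in C3 libraries, a log2 fold change of -0.011 (-0.15 to 0.13, adjusted p = 0.933). FLI1 is located at chr11:128686535-128813267 and ETV6 at chr12:11649674-11895377 (both plus strand). SENCR, a long noncoding RNA read from the strand opposite to FLI1, shares 2.02% of the FLI1 exon bases. SENCR counts rose from 93.5 ± 10.8 to 147.5 ± 24.0 (SD, n = 3), by 0.64 on the log2 scale (adjusted p = 0.00442 from edgeR), which passed both gates for DEGs. Its adjusted p stayed below 0.05 in all 15 alternatives but reached 0.0249, so the gates for DEGs were not met in all of them. ENSG00000245008, which shares 2.08% of the FLI1 exon bases, had 10.6 ± 4.95 and 19.2 ± 4.83 counts and did not pass. The strand setting of the counting is not known here, so reads in shared bases could belong to either gene.

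**Figure D3:**
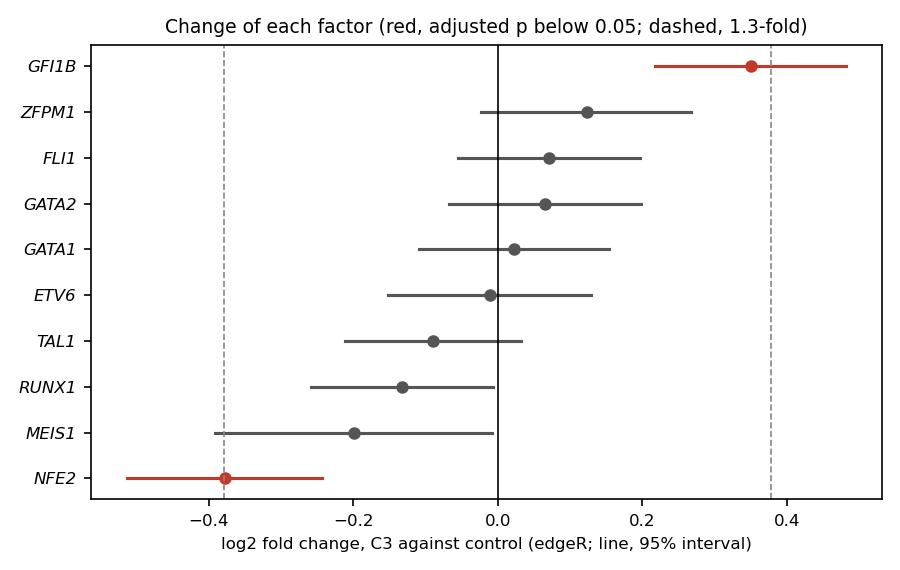
Log2 fold change of each factor, C3 against control, from edgeR (points) with its 95% interval (lines), red where the adjusted p-value is below 0.05, and dashed lines at 1.3-fold in both directions. GFI1B (0.35) and NFE2 (-0.38) are the 2 in red, and the points of both lie just inside the dashed lines.

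Genes of the same families as the 10 factors were examined next, from a list of 18, of which 14 were tested. Here 5 were higher and 3 lower, against 11.0% and 8.77% of all tested genes, with a median log2 fold change of 0.092. This median was 0.18 without control replicate 1, 0.14 without C3 replicate 2 and 0.048 without C3 replicate 1. MEIS3 rose from 48.2 ± 6.82 to 103.0 ± 29.3 normalized counts (log2 fold change 1.09, adjusted p = 0.000532 from edgeR), whereas MEIS2 fell from 539.9 ± 42.9 to 436.8 ± 31.7 (log2 fold change -0.31, adjusted p = 0.0117; SD, n = 3 each). The MEIS2 call was lost with library size alone and without control replicate 1, C3 replicate 2 or C3 replicate 3 (adjusted p up to 0.111). The 5 higher calls include GATA6 and RUNX2, near the low end of the tested counts, and were 3 with DESeq2, with a mean count of at least 50, without control replicate 2 and without C3 replicate 1. ERG, the ETS gene closest to FLI1, rose from 1269.7 ± 74.3 to 1580.1 ± 113.3 (log2 fold change 0.31, adjusted p = 0.00189), and FEV, another ETS gene, fell from 1542 ± 33.4 to 1274.5 ± 77.4 (-0.28, adjusted p = 0.00360). NFE2L3, related to NFE2, rose from 579.4 ± 12.3 to 719.2 ± 40.1 (0.31, adjusted p = 0.00390, all from edgeR).

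GFI1, the close relative of GFI1B that acts in granulocytes and lymphocytes, went from 493.0 ± 43.7 down to 372.9 ± 5.60 counts (SD, n = 3) and passed the gates for DEGs, at -0.40 on the log2 scale (adjusted p = 0.00178 from edgeR). It kept an adjusted p below 0.05 in all 15 alternatives. The gates for DEGs were not met in all of them, with -0.46 to -0.32 and adjusted p up to 0.0320. The log2 ratio of GFI1B to GFI1 counts within a library was 3.32 to 3.59 in control and 4.10 to 4.34 in C3 libraries. The groups did not overlap, with a mean difference of 0.75. Of 14 such ratios between a factor and a tested relative, chosen after the values were seen, 10 reached p = 0.1 in the exact two-sided permutation test, the lowest possible, which becomes 0.14 after adjustment over the 14. These ratios are not independent, since some factors, such as GATA1 and NFE2, enter several of them. A p of 0.1 says only that the groups did not overlap, which held for 17.5% (above) and 16.9% (below) of single tested genes. The share over all possible ratios was not computed. Each of the 10 ratios holds a gene whose own groups did not overlap, so the ratios are not separate evidence of a change. Among these, the ratio of NFE2 to NFE2L3 was 2.38 to 2.54 in control and 1.62 to 1.99 in C3 libraries, and that of FLI1 to ERG was 1.86 to 1.95 and 1.61 to 1.73. The ratio of FLI1 to FEV moved the other way, from 1.54 to 1.71 in control to 1.89 to 2.06 in C3 libraries.

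Of 24 genes for partner proteins of the 10 factors, all were tested, with 1 higher, 5 lower and 18 that did not pass. The median log2 fold change was -0.058 (-0.022 without control replicate 1 and 0.017 with library size alone). Over all tested genes 11.0% were higher and 8.77% lower. MAFF, 1 of the 3 small MAF genes whose proteins pair with NFE2, rose from 85.1 ± 8.63 to 136.5 ± 17.2 normalized counts (SD, n = 3; log2 fold change 0.69, adjusted p = 0.00250 from edgeR). The more abundant MAFG (2315 ± 129.7 and 2222 ± 56.7) and MAFK (631.7 ± 81.9 and 654.5 ± 60.0) had overlapping groups. CTBP1, a corepressor that binds FOG1, had a log2 fold change of -0.27 (adjusted p = 0.00661), SSBP2, of the LDB1 complex with TAL1, -0.27 (0.0181), and CBFA2T3, a corepressor of the TAL1 complex, -0.22 (0.0251, all from edgeR). With RLE factors 5 partners were again lower, and with either GC correction 6 were. With library size alone, 3 partners were higher and 0 lower, and 0 were lower without control replicate 1 or control replicate 2, 1 without C3 replicate 2 and 2 without C3 replicate 3. In these 5 fits the lower genes among all tested also fell in number, from 1323 to between 591 and 807, and CTBP1 stayed between -0.33 and -0.20 in all 15 alternatives. LMO2, LDB1, TCF3, TCF12 and CBFB, which complete the TAL1 and RUNX1 complexes, had log2 fold changes of 0.087, 0.020, 0.033, -0.010 and -0.055 and did not pass.

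Genes that these factors are known to control in megakaryocytes were called in both directions, as were 11.0% (higher) and 8.77% (lower) of all tested genes. Of 32 such genes, 28 were tested, 5 were higher, 4 were lower and 19 did not pass, with a median of 0.011 on the log2 scale (-0.002 to 0.041 over the fits that leave out a library). The median was -0.021 with DESeq2, -0.040 with limma-voom, 0.084 with library size alone and 0.089 with a mean count of at least 50. The list was drawn up with some of these results already known. The higher count was 8 with library size alone and 8 without C3 replicate 1. TBXAS1, thromboxane synthase and a known target of NFE2, fell from 773.3 ± 15.0 to 604.4 ± 25.6 normalized counts (SD, n = 3; log2 fold change -0.36, adjusted p = 0.000992 from edgeR). TUBB1, the platelet tubulin and also an NFE2 target, was near the lower end of the tested genes, with 42.1, 41.4 and 38.2 counts in control and 9.11, 19.1 and 18.0 in C3 libraries (adjusted p = 0.00253 from edgeR). RAB27B, which takes part in granule release and has been tied to NFE2, had 2047 ± 107.8 and 2176 ± 234.1 counts with overlapping groups. GP1BA, a platelet adhesion receptor gene, was lower (2610.2 ± 88.6 to 1854 ± 21.0; log2 fold change -0.49, adjusted p = 2.17e-06 from edgeR).

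MYH10, a nonmuscle myosin gene that RUNX1 is known to repress, rose from 5734 ± 356.7 to 7238 ± 235.2 normalized counts (SD, n = 3; log2 fold change 0.34, adjusted p = 0.000482 from edgeR). THBS1 and CCND1, the other two of the most significant higher targets, had log2 fold changes of 0.91 and 0.60. PRKCQ, a kinase gene activated by RUNX1, was the fourth lower gene (-0.28, adjusted p = 0.0122), named after its value was seen. Its call was lost with library size alone and without control replicate 1, with adjusted p-values of up to 0.0816. Of other targets of RUNX1, PCTP had a log2 fold change of -0.013 (adjusted p = 0.925) and ALOX12 of -0.28 (adjusted p = 0.406, overlapping groups). Neither passed, and MYL9 had 0 counts in every library. MYH9, a myosin gene on the same list, rose by 0.36 (adjusted p = 0.00161) and passed in all 15 alternatives. ANKRD26, also on the list, had 0.34 (adjusted p = 0.0943, all from edgeR) and passed as higher in 5 of 15 alternatives. ITGA2B had a log2 fold change of -0.060 (95% interval -0.20 to 0.075, adjusted p = 0.573), with overlapping groups.

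Among the 9 tested megakaryocyte markers, 1 was higher and 2 were lower (GP1BA and TUBB1, above), against 11.0% and 8.77% of all tested genes. Over the fits the higher count ran from 0 to 1 and the lower count from 1 to 3. The higher one was ITGB3, which encodes the partner chain of ITGA2B, with 183.8 ± 7.42 and 232.6 ± 14.7 counts (SD, n = 3; adjusted p = 0.0325 from edgeR). This call was lost in 6 of 15 alternatives, DESeq2 and the fits without any single control replicate, C3 replicate 2 or C3 replicate 3 (adjusted p up to 0.173). GP6, the collagen receptor gene, had 2819 ± 69.5 and 2891 ± 17.0 counts, and GP9, PPBP and VWF had means of at most 54.4, and none of these 4 passed. VWF had a log2 fold change of -0.74 with overlapping groups (adjusted p = 0.0629 from edgeR) and passed as lower in 6 of 15 alternatives, which are no count filter, the replicate block, both GC corrections and the fits without control replicate 3 and without C3 replicate 1. PPBP had -0.82 (adjusted p = 0.176), with every C3 library below every control library, and passed in 0 of 15.

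Factors of neighbouring lineages were compared in the same way and against the same shares of all tested genes. Of 14 erythroid genes, 11 were tested, with 2 higher and 1 lower. KLF1, the red cell master regulator, had 682.5 ± 48.3 and 753.5 ± 12.8 normalized counts (SD, n = 3; log2 fold change 0.14, adjusted p = 0.192 from edgeR), while EPOR, the erythropoietin receptor gene, rose by 0.35 on the log2 scale (adjusted p = 0.00457). ALAS2 (0.56) and HBA2 (-0.68) also passed, but both calls were lost with DESeq2 and without control replicate 1, C3 replicate 2 or C3 replicate 3, HBA2 also without control replicate 2 and ALAS2 also without control replicate 3. HBA2 is nearly identical to HBA1, so its reads are uncertain. Of 14 myeloid genes, 8 were tested, with 1 higher and 2 lower. SPI1, whose protein PU.1 opposes GATA1, had 2610.3 ± 80.9 and 2646 ± 168.7 counts with overlapping groups, CEBPA fell by 0.28 on the log2 scale (adjusted p = 0.00253), CEBPB rose by 0.38 (0.00161) and LYZ fell by 0.51 (4.65e-05).

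Of 13 stem and progenitor genes, all were tested, with 3 higher (5 with library size alone) and 1 lower. Over all tested genes 11.0% were higher and 8.77% lower. The median log2 fold change of the 13 genes was 0.11 (-0.003 without C3 replicate 3). MYB, which keeps progenitors from becoming megakaryocytes, rose from 3240.1 ± 88.4 to 3934 ± 216.0 normalized counts (SD, n = 3; log2 fold change 0.28, adjusted p = 0.00217 from edgeR). CD34, a surface marker of progenitors, rose from 521.5 ± 11.5 to 686.4 ± 9.56 (0.39, adjusted p = 0.000463), and PRDM16 from 46.0 ± 11.1 to 81.8 ± 7.88 (0.81, adjusted p = 0.00576). HOXA10 fell from 461.4 ± 21.3 to 355.9 ± 32.4 (-0.37, adjusted p = 0.00434, all from edgeR). Of 10 lymphoid genes, 6 were tested, and IL7R was the 1 that passed (log2 fold change 1.17, adjusted p = 1.35e-06 from edgeR).

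The genes whose pattern over the 6 libraries was most like that of NFE2, among 11850 other genes with a mean of at least 50 counts, were ARHGAP1 (Pearson's r of log2 CPM 0.9962), GUCD1 (0.9962) and TCF19 (0.9958). They fell by 0.36, 0.34 and 0.38 on the log2 scale. These values only describe the 6 libraries, which share the contrast between C3 and control cells, and 439 genes had an r above 0.95.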

How the data were processed

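RNA of Meg-01 cells was sequenced in 6 libraries (3 control, 3 C3). The authors used fastp for trimming, STAR 2.6.1d for alignment to GRCh38/hg38 and featureCounts 1.5.0-p3 for counting, per the methods and the submitters' processing notes, and the deposited values are raw counts per Ensembl gene. Which annotation release and strand option they used is not given in the sources used here. Genes reaching 10 counts in 3 or more libraries (15078) were scaled by TMM factors and tested in R 4.3.3 by the quasi-likelihood method of edgeR 4.0.16, and p-values were adjusted over all of them (Benjamini-Hochberg). A normalized count is the count over the library's effective size, times the mean of these sizes. Standard errors derive from the F statistic and 95% intervals from the matching t quantile. Ratios and single counts had exact two-sided permutation tests.

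Symbols, coordinates and exons came from GENCODE release 44 (58207 of 58735 identifiers matched) and promoters from RefSeq. The factors, the lists and the rule for named genes were chosen with earlier results of these data known. The rule covers all 10 factors, genes sharing their exon bases, the megakaryocyte markers, the 3 genes most like the factor with the smallest p, and from each list up to 3 genes per direction with the smallest p below an adjusted 0.05. Other genes were named after their values were seen, and 1 marker is not reported here. The fits were tested on simulated data. Alternatives comprised DESeq2 1.42.0, limma-voom (limma 3.58.1), RLE factors, scaling by library size alone, omitting the filter, requiring a mean of 50, blocking on replicate number, GC correction by loess (span 0.3) with and without that block, other gates, and leaving out each library.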

Additional observations from a re-analysis of the deposited data

How the results depend on the processing

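GFI1B and NFE2 kept their direction and an adjusted p-value below 0.05 in all 15 alternatives, with log2 fold changes of 0.29 to 0.42 and -0.44 to -0.31. Both lie next to the fold change gate, so the number of DEGs among the 10 factors (0 higher and 0 lower) moved. It became 1 lower (NFE2) with DESeq2, limma-voom and RLE factors, 1 higher (GFI1B) with library size alone, and 1 and 1 without a fold change gate. Library size alone, chosen for this count after seeing the data, also changed how many factors had all C3 libraries above (5, not 1) or below (1, not 4) all control libraries. With each library left out, the number of DEGs among the factors was 0 to 1 higher and 0 to 1 lower, with GFI1B gained without C3 replicate 3 and NFE2 gained without control replicate 3 or C3 replicate 1. DESeq2 made 2 factors lower at 0.05, adding RUNX1 (log2 fold change -0.14). Signs changed only for factors near 0. ETV6 was 0.062 with library size alone, 0.002 with a mean count of at least 50, 0.002 and 0.006 with GC correction without and with the replicate block, and -0.062 to 0.046 with a library left out. GATA1 was -0.023 with both GC corrections and -0.020 to 0.061 with a library left out. The cause of these shifts was not tested.

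The replicate numbers are not known to pair cultures, since the methods name no pairing. Same-numbered libraries deviated together by r = 0.022, -0.047 and 0.029. Only control replicate 1 and C3 replicate 3 correlated best with their own number. Such values near 0 cannot show whether cultures were paired. The replicate block gave 1 higher and 1 lower factor, 909 higher and 268 lower DEGs over all genes against 761 and 222 without it, and -0.042 for the GATA1 to GATA2 ratio. Library size alone raised the share of higher DEGs from 77.4% to 91.0% (1024 higher and 101 lower), and without C3 replicate 3 the DEGs were 516 higher and 129 lower. Without C3 replicate 1, 340 were lower. At 0.05 alone, the 1323 lower genes became 611 with library size alone and 807, 701, 802 and 591 without control replicate 1, control replicate 2, C3 replicate 2 and C3 replicate 3, and the 1658 higher genes became 1053 without C3 replicate 3. For MEIS1, with 323 to 446 counts per library, the 95% interval is the widest of the 10.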
